A study of Rattus norvegicus with 12 samples.

Results

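The mRNAs described here encode 6 protein subunits that mitochondria make from their own genome, and they belong to complexes III, IV and V of oxidative phosphorylation. They are Mt-cyb (ENSRNOG00000031766) of complex III, Mt-co1 (ENSRNOG00000034234), Mt-co2 (ENSRNOG00000030371) and Mt-co3 (ENSRNOG00000030700) of complex IV, and Mt-atp6 (ENSRNOG00000031979) and Mt-atp8 (ENSRNOG00000033299) of complex V. They were found by their Ensembl rat identifiers and are 6 of the 25424 genes read from the deposited table. All 6 were above 0 in every library and are among the 12150 genes that passed the filter on low values. The set was chosen by measured values, since its high level in the ribosome fraction of these same libraries was known when it was picked. The difference between the fractions is therefore given for these mRNAs as a description, without a test. The comparison of Aβ with vehicle was not part of that choice and was tested.

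Mitochondrial mRNAs are copied from both strands of a small circular genome, carry short poly(A) tails and are translated inside the organelle by mitochondrial ribosomes, which are distinct from the ribosomes of the cytosol. Cycloheximide, the drug used here to hold ribosomes on their mRNAs, stops cytosolic ribosomes and leaves mitochondrial ones largely unaffected. Neurons depend heavily on oxidative phosphorylation, in which complex III passes electrons to cytochrome c, complex IV passes them on to oxygen, and complex V uses the resulting proton gradient to make ATP.

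The study asked which mRNAs were associated with ribosomes in rat neurons exposed to Aβ, the peptide that accumulates in Alzheimer's disease. Primary cortical neurons from Sprague-Dawley rat embryos of embryonic day 18 were grown to 28 days in vitro, and the last 24 h were spent with 100 nM synthetic rat Aβ1-42, a preparation that includes oligomers, or with the HEPES buffer that served as vehicle. All cultures received cycloheximide shortly before lysis in a detergent buffer, and the cleared lysate either gave total RNA directly or was layered on sucrose and spun to pellet ribosomes with the RNA they carried. There were 3 libraries from each of vehicle total, Aβ total, vehicle ribosome and Aβ ribosome samples, 12 in all, and library numbers are those of the sample titles. The study describes the sequencing of the fractions as paired, but no source used here states which libraries form a pair or came from one culture. The tests therefore treat libraries as unpaired, and p-values measure the spread between libraries, which may be partly technical.

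Libraries were made from polyadenylated RNA, and 3 samples with little RNA, which are not named, went through a more efficient bead capture whose part in the values below was not tested. The libraries held 14.1 M to 20.0 M mapped fragments. The deposited unit is FPKM, fragments per transcript length and per sequencing depth, which was divided here by a size factor per library and is called scaled FPKM. FPKM is a level per length, so values of different genes are set side by side here. They also depend on how well each mRNA was captured by its poly(A) tail and on which fragments could be assigned, which was not tested. Whole fragments could be worked back from the FPKM, and the transcript lengths that came with them were 1143 bases for Mt-cyb, 1545 for Mt-co1, 684 for Mt-co2, 784 for Mt-co3, 681 for Mt-atp6 and 204 for Mt-atp8. The files give no names for the other genes, so other mitochondrial genes, nuclear subunits of the same complexes and the markers of neurons and glia could not be looked up. Fragments from nuclear copies of mitochondrial DNA cannot be told apart here, nor can those from the opposite strand, since the strand setting of the counting is not given in the sources used here.

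Together the 6 mRNAs made up a large share of every library and a larger one in the ribosome fraction. They held 3.98%, 3.74% and 4.24% of mapped fragments in vehicle total libraries 4, 8 and 12, and 4.08%, 3.90% and 4.34% in Aβ total libraries 3, 7 and 11. The shares were 11%, 15.7% and 14.3% in vehicle ribosome libraries 2, 6 and 10, and 9.85%, 14.0% and 14.3% in Aβ ribosome libraries 1, 5 and 9. Every ribosome library was above every total library, and libraries 1 and 2 were the lowest of the ribosome fraction. The mean share was 3.98 ± 0.251% in vehicle total, 4.11 ± 0.224% in Aβ total, 13.6 ± 2.39% in vehicle ribosome and 12.7 ± 2.48% in Aβ ribosome (SD, n = 3). The 2 treatments overlapped in both fractions. In terms of scaled FPKM, the sum of the 6 mRNAs was 4.73-fold higher in the ribosome fraction than in total RNA with vehicle, and 3.99-fold higher with Aβ. In bulk RNA the share in total RNA cannot tell more mitochondria in a sample from more RNA per mitochondrion. Total RNA here is that of the cleared lysate, which the paper describes as a cytosolic extract. How far mitochondria were opened by the detergent or lost in the clearing spin was not tested. What brought the 6 mRNAs into the ribosome pellet was not tested.

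**Figure D1:**
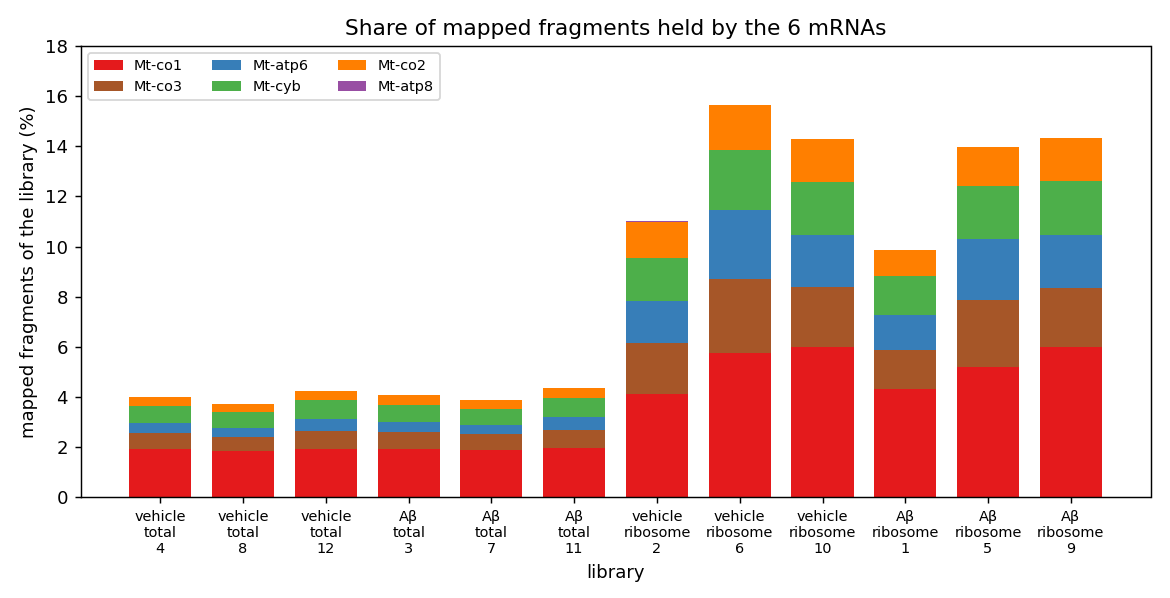
Percent of mapped fragments (vertical axis) held by each of the 6 mRNAs in each of the 12 libraries (horizontal axis), as stacked bars. The 6 total libraries reach 3.74 to 4.34% and the 6 ribosome libraries 9.85 to 15.7%, and Mt-atp8 is too small a part to be seen.

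Mt-cyb encodes cytochrome b, the only subunit of complex III made in the mitochondrion and the one that carries its quinone-binding sites. Its scaled FPKM was 4991, 4807 and 6062 in vehicle total libraries 4, 8 and 12, and 5190.2, 4957 and 6148 in Aβ total libraries 3, 7 and 11. In the ribosome fraction it was 16873, 25431 and 19607 in vehicle libraries 2, 6 and 10, and 13925, 20628 and 20606 in Aβ libraries 1, 5 and 9. The fractions did not overlap, and the lowest ribosome library stood 2.27-fold above the highest total library, which was the smallest such gap of the 6 mRNAs. The log2 difference between ribosome and total RNA was 1.95 (SE 0.29) with vehicle and 1.74 (SE 0.32) with Aβ, or 3.87-fold and 3.34-fold.

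Mt-co1, Mt-co2 and Mt-co3 encode the core of complex IV, cytochrome c oxidase. Mt-co1 holds the site where oxygen is reduced, and its mRNA had the highest mean FPKM of all 25424 genes. Its scaled FPKM was 11015, 10333 and 11766 in vehicle total libraries 4, 8 and 12, and 11155, 10956 and 11835 in Aβ total libraries 3, 7 and 11. The ribosome values were 30260.4, 45658 and 41046 in vehicle libraries 2, 6 and 10, and 28750.2, 37782 and 42660.1 in Aβ libraries 1, 5 and 9. Mt-co1 showed the tightest total RNA values among the 5 abundant mRNAs in vehicle, and the smallest difference between fractions of all 6 in both treatments. That log2 difference was 1.80 (SE 0.33) with vehicle and 1.67 (SE 0.39) with Aβ, or 3.49-fold and 3.18-fold.

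Mt-co2 encodes the subunit that takes electrons from cytochrome c through its copper centre. In vehicle total libraries 4, 8 and 12 its scaled FPKM was 4601, 4288 and 5079.8, and in Aβ total libraries 3, 7 and 11 it was 5013, 4877 and 5074. Vehicle ribosome libraries 2, 6 and 10 held 24236, 32267 and 26277, and Aβ ribosome libraries 1, 5 and 9 held 15253, 25681 and 27485. Library 1 was far below libraries 5 and 9, which gave the Aβ ribosome group an SD of 6603 around its mean of 22806 (n = 3). The log2 difference between fractions was 2.56 (SE 0.28) with vehicle and 2.15 (SE 0.35) with Aβ, or 5.90-fold and 4.43-fold.

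Mt-co3 encodes a subunit that lies beside the catalytic core and carries no redox centre. It had 7045, 6458 and 8313 scaled FPKM in vehicle total libraries 4, 8 and 12, and 7443, 6894 and 8504 in Aβ total libraries 3, 7 and 11. It had 30026, 45556 and 32209 in vehicle ribosome libraries 2, 6 and 10, and 20397, 38346 and 33446 in Aβ ribosome libraries 1, 5 and 9. The highest value, in vehicle ribosome library 6, and the lowest of the ribosome fraction, in Aβ ribosome library 1, belonged to different treatments, but the groups overlapped. The log2 difference between fractions was 2.29 (SE 0.32) with vehicle and 1.97 (SE 0.39) with Aβ, or 4.88-fold and 3.91-fold.

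Mt-atp6 and Mt-atp8 encode the mitochondrial subunits of complex V, ATP synthase, and their reading frames overlap on one shared transcript. Mt-atp6 forms part of the channel through which protons cross the membrane. Its scaled FPKM was 5304, 4562 and 6949 in vehicle total libraries 4, 8 and 12, and 5421, 4892 and 7427 in Aβ total libraries 3, 7 and 11. The ribosome fraction gave 28169, 49663 and 32336 in vehicle libraries 2, 6 and 10, and 21318, 40769 and 34224 in Aβ libraries 1, 5 and 9. Mt-atp6 in library 6 was the highest value of any of the 6 mRNAs in any library. The log2 difference between fractions was 2.69 (SE 0.35) with vehicle and 2.41 (SE 0.40) with Aβ, or 6.45-fold and 5.32-fold. Among the 5 abundant mRNAs this was the largest difference in both treatments.

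Mt-atp8, a small membrane subunit of the same complex, stood apart by its level. Its scaled FPKM was 57.5, 44.5 and 49.5 in vehicle total libraries 4, 8 and 12, and 55.7, 59.9 and 56.5 in Aβ total libraries 3, 7 and 11. Its ribosome values were 442, 409 and 359.6 in vehicle libraries 2, 6 and 10, and 495, 302 and 362 in Aβ libraries 1, 5 and 9. The fractions were widely separated, with the lowest ribosome library 5.04-fold above the highest total library. The log2 difference was 2.98 (SE 0.15) with vehicle and 2.70 (SE 0.18) with Aβ, or 7.87-fold and 6.50-fold. This was the largest of the 6 with all libraries, but without Aβ ribosome library 1 the Aβ difference was 2.51 for Mt-atp8 and 2.68 for Mt-atp6. These values rest on 175 to 241 fragments per total library and 1096 to 1405 per ribosome library, for a counting error of 2.67 to 7.56%, against at most 0.407% for the other 5. The union mode of the counting leaves out fragments that fall on 2 overlapping genes. For a gene of 204 bases that overlaps Mt-atp6, the level is therefore a count of the fragments that could be assigned and not a level of the shared transcript. Fragments on both genes are left out for Mt-atp6 as well.

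**Figure D2:**
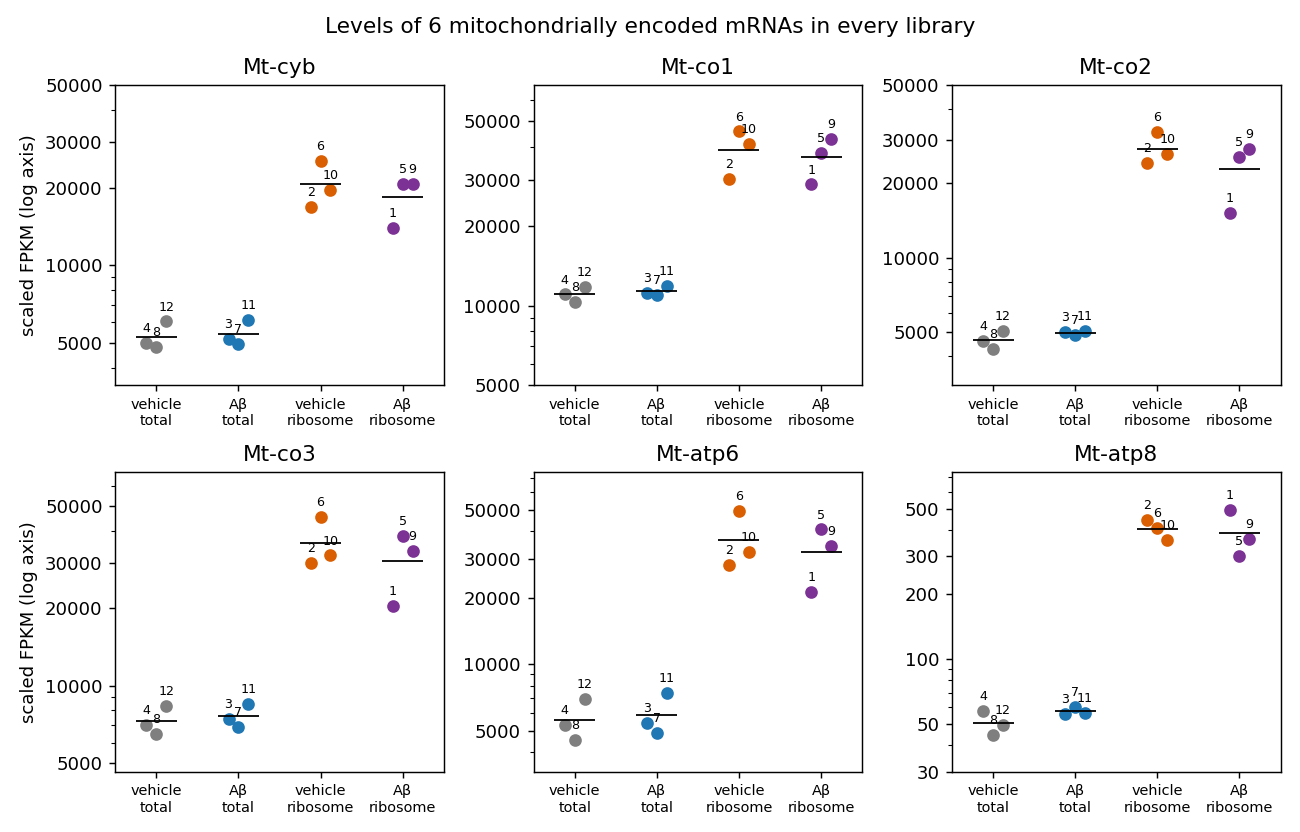
Scaled FPKM (vertical log axis) of each mRNA in the 4 groups (horizontal axis), with 1 point per library labelled by its number and a line at the group mean (n = 3). In each of the 6 panels every ribosome library lies above every total library, while vehicle and Aβ points overlap within the ribosome fraction.

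All 6 mRNAs were higher in all 6 ribosome libraries than in any total library. By limma, 1931 of 12150 genes (15.9%) were called higher in the ribosome fraction with vehicle and 2385 (19.6%) with Aβ, and 2324 genes (19.1%) had every ribosome library above every total library. Which treatment had more calls depended on the fit, since 1 fit of all 12 libraries called 2571 genes higher with vehicle and 2213 with Aβ. With 1 library left out the genes called higher ranged from 796 to 2576 with vehicle and from 1392 to 2791 with Aβ, the lowest being without vehicle total library 4 and without Aβ total library 3. These are background shares only, since the difference between fractions was known when the 6 were chosen. With FPKM as deposited the genes called higher were 918 of 4562 with vehicle and 1138 of 5243 with Aβ, against 1931 of 3919 and 2385 of 4993 after scaling, and the median of all genes lay at -0.30 and -0.23 on the log2 scale instead of near 0. With FPKM per fragment outside the 6 mRNAs they were 1342 of 4001 and 1696 of 4952. The 6 mRNAs were higher in the ribosome fraction under each of these scalings. Ranked by the log2 difference with vehicle, the 6 were at positions 4 (Mt-atp8), 6 (Mt-atp6), 7 (Mt-co2), 14 (Mt-co3), 33 (Mt-cyb) and 52 (Mt-co1) of 12150. With Aβ they were at positions 4 (Mt-atp8), 5 (Mt-atp6), 13 (Mt-co2), 19 (Mt-co3), 28 (Mt-cyb) and 34 (Mt-co1). With all libraries the order of the 6 was thus the same in the 2 treatments, and without Aβ ribosome library 1 Mt-atp6 came before Mt-atp8 with Aβ. Their median log2 difference was 2.42 with vehicle and 2.06 with Aβ. Of the other 12144 genes, 46 reached the smallest value of the 6 with vehicle and 28 with Aβ, and 3 exceeded the largest in each treatment.

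**Figure D3:**
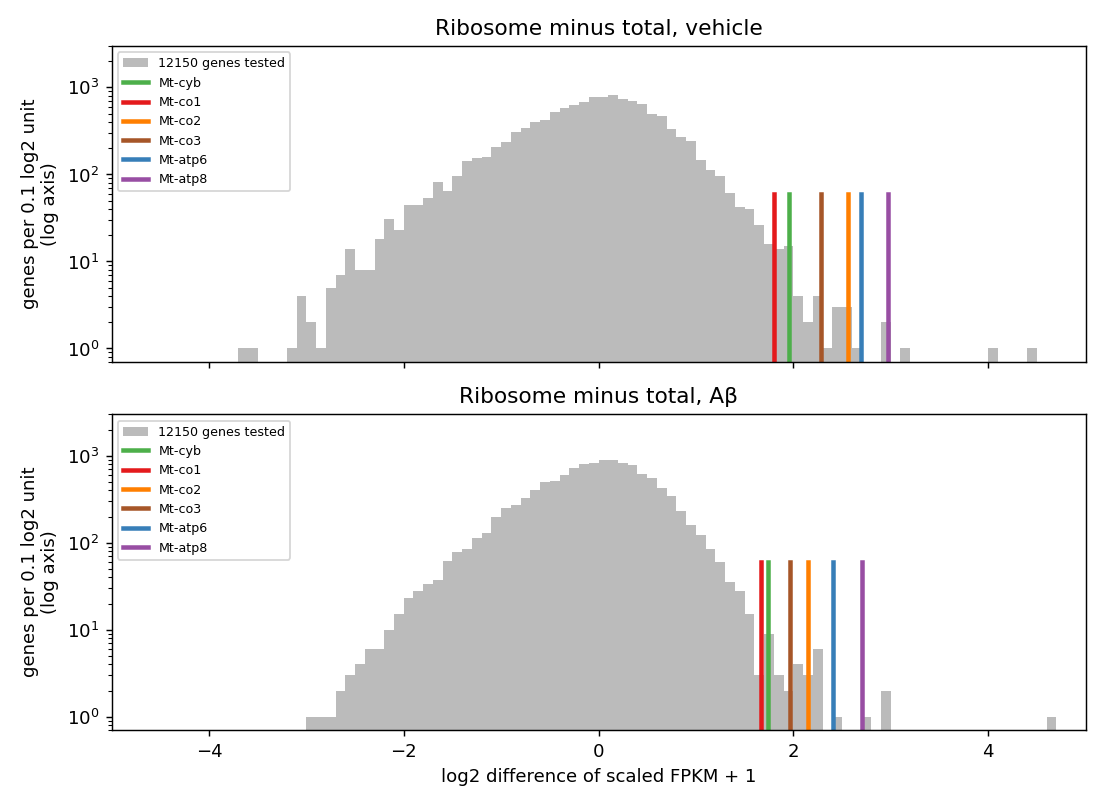
Number of genes (vertical log axis) by log2 difference of scaled FPKM + 1 between ribosome and total RNA (horizontal axis), for vehicle above and Aβ below, with coloured lines at the 6 mRNAs. The 12150 genes are centred near 0, and the 6 lines stand between 1.80 and 2.98 with vehicle and between 1.67 and 2.70 with Aβ.

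The 6 mRNAs were not equally high in the ribosome fraction, so their order by level differed between the fractions. With all libraries the log2 difference between fractions fell as transcript length rose, in both treatments. It went from 2.98 with vehicle for Mt-atp8 (204 bases) to 1.80 for Mt-co1 (1545 bases). Whether length had a part in these differences was not tested, so they cannot be read as particular to each gene. In total RNA the order of mean scaled FPKM was Mt-co1, Mt-co3, Mt-atp6, Mt-cyb, Mt-co2 and Mt-atp8 in both treatments. In the ribosome fraction it was Mt-co1, Mt-atp6, Mt-co3, Mt-co2, Mt-cyb and Mt-atp8, again in both. Mt-cyb was above Mt-co2 in all 6 total libraries and below it in all 6 ribosome libraries. Mt-co3 was above Mt-atp6 in 6 of 6 total libraries and in 1 of 6 ribosome libraries, vehicle ribosome library 2. The ranges of several neighbours over the libraries of a group overlapped, even where their order held within libraries. Mt-co3 was above Mt-co2, and Mt-co2 above Mt-cyb, in all 6 ribosome libraries. The order was less steady for Mt-co1 above Mt-atp6 (4 of 6 ribosome libraries) and Mt-atp6 above Mt-cyb (4 of 6 total libraries). In total RNA only the steps from Mt-co1 to Mt-co3 (1.52-fold with vehicle, 1.49-fold with Aβ) and from Mt-co2 to Mt-atp8 (92.2-fold and 86.9-fold) had ranges that did not overlap. In the ribosome fraction only the step from Mt-cyb down to Mt-atp8 did, at 51.2-fold with vehicle and 47.6-fold with Aβ. The steps down to Mt-atp8 compare fragments that could be assigned and not levels of transcripts.

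Ratios between the mRNAs within a library do not depend on the scaling between libraries, but the mRNAs compared differ in transcript length. Mt-cyb was 45.2 to 51.9% of Mt-co1 in the 6 total libraries and 47.8 to 55.8% in the 6 ribosome libraries, ranges that overlap. Mt-co2 was 41.5 to 44.9% of Mt-co1 in total RNA and 53.1 to 80.1% in the ribosome fraction, with no overlap. Mt-atp6, by the fragments that could be assigned to it, was 44.1 to 62.8% of Mt-co1 in total RNA and 74.1 to 109% in the ribosome fraction, also without overlap. Mt-co3 lay between, at 62.5 to 71.9% and 70.9 to 101%, where the highest total library passed the lowest ribosome library. By fragments that could be assigned, Mt-atp8 was 0.712 to 1.23% of Mt-atp6 in total RNA and 0.741 to 2.32% in the ribosome fraction. These values are not ratios of transcript levels, since both genes lie on one shared transcript. The highest of these ratios was in Aβ ribosome library 1 and the lowest in vehicle total library 12. The ratio therefore overlapped between the fractions, although both genes were higher in the ribosome fraction.

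No difference between Aβ and vehicle passed the threshold for any of the 6 mRNAs, in either fraction. Limma called 0 of the 12150 genes (0%) in the ribosome fraction, where 178 had an unadjusted p under 0.05, and limma with voom weights on the whole fragments also called 0 (120 unadjusted). In total RNA limma called 0 genes (0%) with 20 unadjusted, and voom called 0 with 16. For the interaction of treatment and fraction, which asks whether the difference between fractions moved with Aβ, limma called 0 genes (0%) with 84 unadjusted, and voom called 0 with 61. Each of these unadjusted counts is less than a share of 0.05 of the genes tested, the share that tests with no difference would give. Libraries of one fraction with neighbouring sample numbers deviated together (correlations of 0.406 to 0.699 over genes), and the unpaired fits keep this in their error. Its part in the low counts was not tested. With runs of neighbouring sample numbers within each fraction as a block, the unadjusted counts were 627 (ribosome fraction), 103 (total RNA) and 309 (interaction), again with 0 called. Of these only the 627 is above a share of 0.05. The absence of calls does not show that the 6 were alike in the 2 treatments. The 95% intervals below come from 1 fit of 12 libraries that shares the spread over both fractions. In a fit within each fraction, the SE of each of the 6 was larger in the ribosome fraction and smaller in total RNA. For Mt-co2 it was 0.49 in the ribosome fraction and 0.14 in total RNA, against 0.27 in the shared fit. The filter and the mean-variance trend mattered too. For Mt-co1 in the ribosome fraction the SE was 0.29 in the shared fit, 1.02 with no filter and 0.18 without the trend. For Mt-atp8 it was 0.17 in each. Between fractions with vehicle the SE of Mt-co1 was 0.33, against 1.995 with no filter and 0.19 without the trend. The size of change that the data leave possible therefore depends on the fit and the filter.

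In the ribosome fraction the fitted differences between Aβ and vehicle lay below 0 for all 6 mRNAs and inside their error. The median of the 6 was -0.19 on the log2 scale, beside a median of 0.01 over all genes tested, of which 52.8% lay above 0. Mt-co2 had the lowest value, -0.31 (SE 0.27), with a 95% interval of -0.91 to 0.29 (limma, Benjamini-Hochberg adjusted p = 0.9997). Mt-co3 stood at -0.25 (SE 0.31), Mt-atp6 at -0.20 (SE 0.34) and Mt-cyb at -0.17 (SE 0.27). Mt-co1 at -0.10 (SE 0.29) and Mt-atp8 at -0.09 (SE 0.17) were nearest to 0. The adjusted p from limma was 0.9997 for each. Except for Mt-co2, the direction changed when certain single libraries were left out. Without Aβ ribosome library 1 the values of Mt-co1, Mt-co3, Mt-atp6 and Mt-cyb were 0.06, 0.02, 0.07 and 0.02. That of Mt-co2 was -0.04. Mt-atp8 was 0.08 without Aβ ribosome library 5, and Mt-co1 and Mt-atp6 were 0.03 and 0.04 without vehicle ribosome library 6. Within the assumed runs described below, which leaving out 1 library breaks up, each of the 5 abundant mRNAs was above vehicle in 1 of 3.

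In total RNA the fitted differences lay above 0 for all 6, by less. Their median was 0.07, and 52.4% of all genes tested lay above 0. Mt-atp8 had the highest value, 0.19 (SE 0.17), with an interval of -0.18 to 0.56, and its vehicle mean of 50.5 ± 6.60 stood beside an Aβ mean of 57.4 ± 2.23 scaled FPKM (SD, n = 3; limma adjusted p = 1). Mt-co2 stood at 0.10 (SE 0.27), Mt-atp6 at 0.08 (SE 0.34), Mt-co3 at 0.07 (SE 0.31), and Mt-cyb and Mt-co1 both at 0.04, each with an adjusted p of 1 in limma. Without vehicle total library 8 the values of Mt-co1, Mt-co3, Mt-atp6 and Mt-cyb were -0.01, -0.01, -0.06 and -0.02, and those of Mt-co2 and Mt-atp8 were 0.04 and 0.10. Without Aβ total library 11 those of Mt-co3, Mt-atp6 and Mt-cyb were -0.01, -0.10 and -0.05.

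Libraries of one fraction with neighbouring sample numbers deviated together over all genes, so Aβ was also set against vehicle within runs of 4 consecutive numbers (1 to 4, 5 to 8 and 9 to 12). That these runs are pairs is an assumption made from the numbers, and the values are a description. In total RNA, Aβ was above vehicle in 3 of 3 runs for Mt-co1 (0.02, 0.08 and 0.01 on the log2 scale), Mt-co3 (0.08, 0.09 and 0.03), Mt-atp6 (0.03, 0.10 and 0.10) and Mt-cyb (0.06, 0.04 and 0.02), and in 2 of 3 for Mt-co2 and Mt-atp8. Leaving out 1 library breaks such a pair, so the changes of sign above do not show how these differences vary within runs. In the ribosome fraction the 5 abundant mRNAs were below vehicle in the first 2 runs and above it in the last, for example -0.67, -0.33 and 0.06 for Mt-co2. Mt-atp8 ran otherwise there, at 0.16, -0.43 and 0.01. With these runs within each fraction as a block, limma gave an adjusted p of 1 for each of the 6 in total RNA and of 0.695 to 0.888 in the ribosome fraction.

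The interaction, the difference between fractions with Aβ minus that with vehicle, was below 0 for all 6 mRNAs. Mt-co2 had the largest, -0.41 (SE 0.39), with an interval of -1.26 to 0.43, and Mt-co1 the smallest, -0.13 (SE 0.41), with -1.03 to 0.76. Between them lay Mt-co3 at -0.32 (SE 0.44), Mt-atp6 at -0.28 (SE 0.49), Mt-atp8 at -0.27 (SE 0.24) and Mt-cyb at -0.21 (SE 0.38). The adjusted p from limma was 0.9998 for each of the 6. Leaving out Aβ ribosome library 1 moved these to values between -0.47 for Mt-atp8 and 0.03 for Mt-co1.

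**Figure D4:**
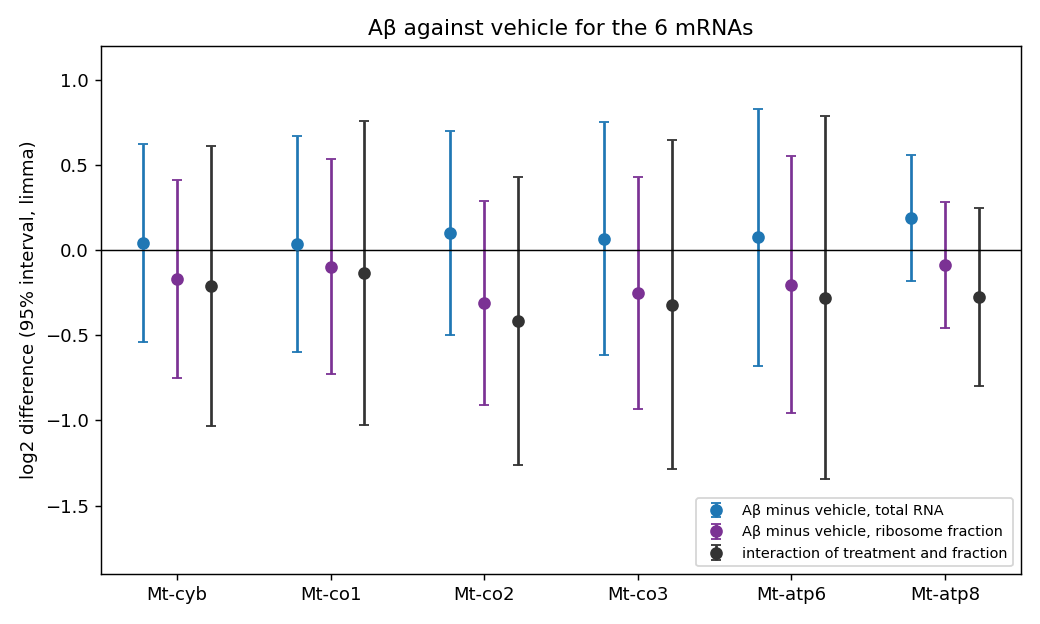
Log2 difference with its 95% limma interval (vertical axis) for each of the 6 mRNAs (horizontal axis), for Aβ minus vehicle in total RNA, the same in the ribosome fraction, and the interaction. Each of the 18 intervals contains 0.

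Libraries of one group differed, and the 5 abundant mRNAs differed together. In 10 of the 12 libraries all 5 lay on the same side of their group means on the log2 scale. The lowest was Aβ ribosome library 1, where they lay at -0.32 (Mt-co1), -0.53 (Mt-co2), -0.54 (Mt-co3), -0.54 (Mt-atp6) and -0.38 (Mt-cyb). The highest was vehicle ribosome library 6, at 0.25, 0.24, 0.37, 0.48 and 0.32 in the same order. Mt-atp6 spread most among the 5 in total RNA, with -0.27 in vehicle total library 8 and 0.33 in vehicle total library 12, and with -0.25 and 0.35 in Aβ total libraries 7 and 11. Mt-atp8 did not follow the others. It stood at 0.39 in Aβ ribosome library 1 and at -0.32 in Aβ ribosome library 5, where the 5 abundant mRNAs were at 0.07 to 0.40. Vehicle libraries showed opposite signs too, with Mt-atp8 at 0.19 in vehicle total library 4 and 0.14 in vehicle ribosome library 2. Its sign was that of the 5 in vehicle total library 8 (-0.17) and vehicle ribosome library 6 (0.02), the latter within its counting error.

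**Figure D5:**
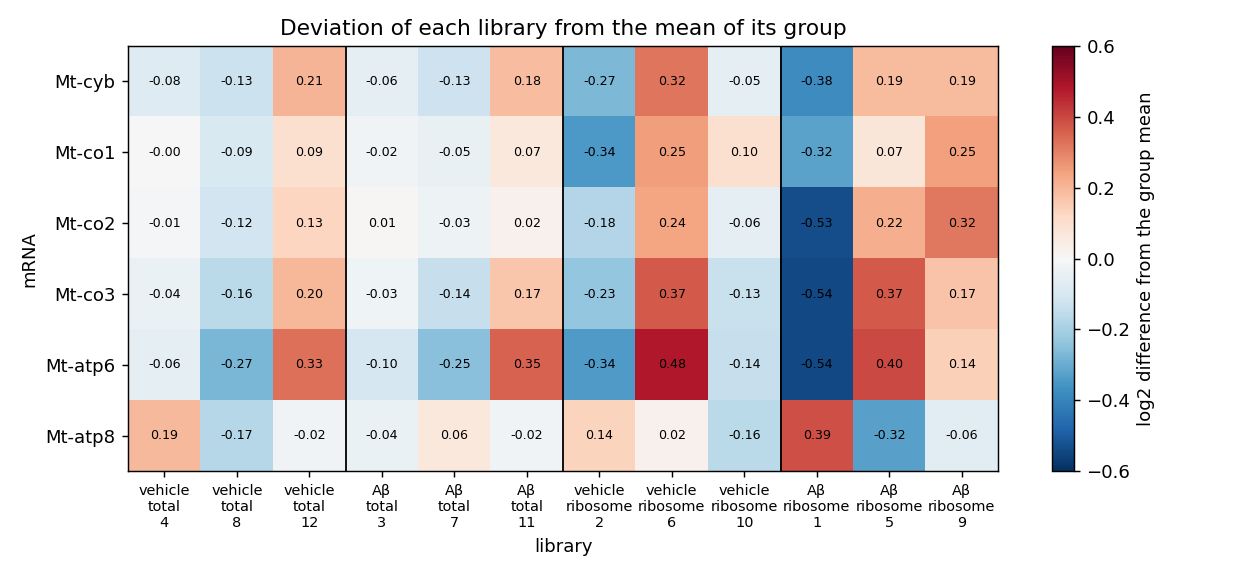
Log2 difference from the group mean (colour scale and printed values) for each mRNA (rows) in each library (columns), with black lines between groups of 3. The upper 5 rows share their sign in 10 of 12 columns. Among these the Mt-atp8 row has the same sign in vehicle total library 8 and vehicle ribosome library 6. It has the opposite sign in vehicle total libraries 4 and 12, vehicle ribosome library 2, Aβ total libraries 7 and 11 and Aβ ribosome libraries 1, 5 and 9. Its values in vehicle total library 12 (-0.02), Aβ total libraries 7 (0.06) and 11 (-0.02) and vehicle ribosome library 6 (0.02) lie within its counting error.

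The genes most like the 6 in pattern were looked for among the other 12144 genes tested, by Pearson's r with a mean profile of the 6 over 12 libraries. For this profile the log2 values of each of the 6 were centred and divided by their SD before they were averaged. ENSRNOG00000029707 (r = 0.998) and ENSRNOG00000030644 (r = 0.995) came first, and they ranked 7 and 8 of all genes by mean FPKM. Their mean scaled FPKM was 2420 and 2266 in vehicle total and 13353 and 12337 in vehicle ribosome libraries. This likeness over 12 libraries is mostly a likeness in the difference between fractions. After the group means were taken out, ENSRNOG00000031033, which ranked 6 by mean FPKM, came first (r = 0.970), followed by ENSRNOG00000008781 (r = 0.970), a much weaker gene at rank 2865. On that measure 5 of the 6 mRNAs themselves had r between 0.907 and 0.980 with their mean profile, of which each is a part, and Mt-atp8 had -0.441. The files do not pair these identifiers with names, and libraries share depth and preparation, so the correlations are given without a test.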

How the data were processed

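RNA sequencing of 12 libraries in 4 groups was taken from the deposited table of FPKM. The authors prepared poly(A)-selected, paired-end libraries, called bases with CASAVA 1.8, aligned trimmed reads with TopHat2 2.0.12 on a Bowtie2 2.2.3 index, counted fragments with HTSeq 0.6.1 in union mode and deposited FPKM without pooling replicates. The count table behind their DESeq test was not used here. The genome build and strand setting are not given in the sources used here. The table holds 23702 Ensembl identifiers, none of which matched the RefSeq gene table provided (assembly GRCr8), and 1 incomplete last row was left out.

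Scaled FPKM are FPKM over a size factor per library (median of ratios). The 12150 genes whose mean FPKM reached 1 were tested on log2(scaled FPKM + 1), which understates the change of low genes. The test was limma 3.58.1 (R 4.3.3) with a mean-variance trend, p-values were adjusted by Benjamini-Hochberg, and the threshold was 0.05. Aβ was compared with vehicle in 1 fit of 12 libraries, and the fractions in fits of 6 libraries within a treatment. Whole fragments were recovered for 12149 of the 12150 genes (each value within 0.02 of a whole number), and the members came within 0.000143 of one. Depth was 14.1 M to 20.0 M fragments, and counting errors cover counting only. The scripts were tested on simulated data, and figures were drawn with matplotlib 3.10.9 in Python 3.11.15.

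The 6 members, the lists and the tests were chosen with earlier results of these data known. The genes to be named were all 6 members, fixed lists of other mitochondrial and oxidative phosphorylation genes and cell type markers, and the genes most like the members in pattern. The lists could not be applied because identifiers are not paired with names, and at most 2 identifiers are printed per measure of likeness. The sequences of the members were not in the tables used here.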

Additional observations from a re-analysis of the deposited data

How the results depend on the processing

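For the 6 mRNAs, 0 of 408 values of Aβ against vehicle or of the interaction passed the threshold under any alternative run in limma (lowest adjusted p 0.587; lowest unadjusted p 0.0348, Mt-atp8 in the interaction without Aβ ribosome library 1), and 15 changed direction, each with 1 library left out. Without Aβ ribosome library 1 the ribosome differences were 0.0634 (Mt-co1), 0.020 (Mt-co3), 0.0681 (Mt-atp6) and 0.0196 (Mt-cyb), and the interaction of Mt-co1 was 0.0264. Without vehicle ribosome library 6 they were 0.0274 (Mt-co1) and 0.0379 (Mt-atp6), and without Aβ ribosome library 5 Mt-atp8 was at 0.0760. In total RNA, without vehicle total library 8 they were -0.00953 (Mt-co1), -0.0128 (Mt-co3), -0.0613 (Mt-atp6) and -0.0245 (Mt-cyb), and without Aβ total library 11 -0.0137 (Mt-co3), -0.0999 (Mt-atp6) and -0.0521 (Mt-cyb). With libraries left out, ribosome differences ranged from -0.27 to 0.06 (Mt-co1), -0.47 to -0.04 (Mt-co2), -0.44 to 0.02 (Mt-co3), -0.40 to 0.07 (Mt-atp6), -0.28 to 0.08 (Mt-atp8) and -0.30 to 0.02 (Mt-cyb), total RNA differences from -0.01 to 0.0842 (Mt-co1), 0.04 to 0.17 (Mt-co2), -0.01 to 0.17 (Mt-co3), -0.10 to 0.24 (Mt-atp6), 0.10 to 0.28 (Mt-atp8) and -0.05 to 0.14 (Mt-cyb), and the interaction of Mt-co1 from -0.31 to 0.03. The difference between fractions was above 0 for the 6 under each alternative. With FPKM as deposited it was 1.46, 2.22, 1.94, 2.63 and 1.61 for Mt-co1, Mt-co2, Mt-co3, Mt-atp8 and Mt-cyb with vehicle, and 1.401, 2.44 and 1.48 for Mt-co1, Mt-atp8 and Mt-cyb with Aβ. With FPKM per fragment outside the 6, added after seeing the data in place of a planned setting without all mitochondrial genes, which was not run because identifiers are not paired with names, it was 2.37 (Mt-co2) and 2.79 (Mt-atp8) with vehicle. Genes called between fractions ranged from 1707 to 5253 with vehicle and 3015 to 5816 with Aβ when a library was left out, the lowest being without vehicle total libraries 4, 8 and 12 (1707, 1845 and 1861), vehicle ribosome library 6 (2560) and Aβ total libraries 3, 7 and 11 (3015, 3138 and 3189). Genes called in total RNA and in the interaction ranged from 0 to 1, the 1 without vehicle total library 8. With no filter on low values 1 gene was called in each of these. A further 591 values of the 6 or of their sum kept their direction and side of the threshold, or moved by less than the spread between replicates. Another 89 counts of genes stayed within 1.5 times the reported count, though genes called between fractions with vehicle still went from 2937 with no filter to 5254 in 1 fit of 12 libraries.

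The labels give no pairs, so runs of 4 consecutive sample numbers were assumed as a replicate block. Deviations from the group means correlated over genes at 0.406 to 0.699 between libraries of one run and fraction, and at -0.196 to 0.068 between fractions. With the replicate block 0 genes were called for Aβ in either fraction or for the interaction (203, 31 and 90 unadjusted), and 3356 and 4293 between fractions. With the run within each fraction as the block, added after seeing the data, 0 were called (627, 103 and 309 unadjusted).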
